A study of Mus musculus with 11 samples.

Results

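The genes described here are the heat shock proteins and DnaJ chaperones of mouse tibialis anterior (TA) muscle, taken as every gene of the mRNA array table whose symbol begins with Hspa, Hspb, Hspd, Hspe, Hsph, Hsp90, Dnaja, Dnajb or Dnajc. The rule found 73 genes among the 21759 symbols of the table, and 61 of them were bright enough to be tested. Messenger RNA was measured on 1 Affymetrix array per mouse in 3 groups. The C57 group held 3 untreated wildtype mice of the C57/B10 strain. The *mdx* group held 4 untreated dystrophin-deficient mice, which carry a nonsense mutation in *Dmd* on the same background. The treated group held 4 *mdx* mice given 1 intravenous injection of Pip6e-PMO (12.5 mg/kg, tail vein) when 12 weeks old. Pip6e-PMO is a peptide-linked morpholino oligonucleotide that makes the splicing machinery skip the mutated *Dmd* exon, so that the treated mice share every allele with the *mdx* mice and differ by the injection. All mice were male and were sampled at 14 weeks of age, and RNA came from cryosections of the middle of the muscle, so that fibres and all other cells of the tissue were measured together. In such bulk tissue, fewer cells of a type and less RNA per cell cannot be told apart.

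Molecular chaperones bind unfolded polypeptides and help them to fold, to assemble or to be degraded. Hsp70 proteins, encoded by the *Hspa* genes, hold short hydrophobic stretches in a cycle driven by ATP. DnaJ proteins, also called Hsp40, bring clients to Hsp70 and speed its ATP hydrolysis, and each compartment of the cell has its own set. Hsp90 proteins act late in folding on signalling proteins, *Hspd1* and *Hspe1* encode the chaperonin and lid of the mitochondrial matrix, and the small heat shock proteins (*Hspb* genes) hold damaged proteins without ATP and are abundant in striated muscle, where they sit at the Z-disc. Heat and unfolded cytosolic protein induce one set of these genes through heat shock factor 1, whereas unfolded protein in the endoplasmic reticulum (ER) induces another set through the unfolded protein response.

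The promoters of the ER members are shown first because 3 of these genes carried the same ER stress element and were among the members that stood higher in treated muscle. The element was searched as CCAAT and CCACG separated by 9 bases on either strand, within the 250 bases before the transcription start in RefSeq annotation of build GRCm38.p6. It was present in 0.113% of 32851 mouse promoters and in 3 of the 76 promoters of members (3.95%). Among the 9 members listed here as ER-resident, 8 had a promoter in that collection and 3 of those promoters held the element. The sequences below run 5′ to 3′ on the strand of the gene up to the base before the start, and capitals mark the element, which lies 65 to 47 bases before the start in *Hspa5*, at 2 places in *Hsp90b1* (212 to 194 and 107 to 89 bases before it) and 105 to 87 bases before the start in *Dnajc3*.
Hspa5 (chr2:34771840-34772089, plus strand): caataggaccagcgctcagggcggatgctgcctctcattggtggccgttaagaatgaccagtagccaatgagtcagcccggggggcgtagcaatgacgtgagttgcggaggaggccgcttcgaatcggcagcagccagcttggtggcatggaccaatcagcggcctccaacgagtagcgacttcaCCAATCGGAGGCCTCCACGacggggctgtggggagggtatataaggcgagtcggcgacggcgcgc
Hsp90b1 (chr10:86705445-86705694, minus strand): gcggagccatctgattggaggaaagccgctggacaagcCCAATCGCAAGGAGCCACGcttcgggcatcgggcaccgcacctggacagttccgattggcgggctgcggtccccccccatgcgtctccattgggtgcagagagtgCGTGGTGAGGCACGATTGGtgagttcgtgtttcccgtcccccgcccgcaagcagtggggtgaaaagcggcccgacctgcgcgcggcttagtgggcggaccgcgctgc
Dnajc3 (chr14:118937682-118937931, plus strand): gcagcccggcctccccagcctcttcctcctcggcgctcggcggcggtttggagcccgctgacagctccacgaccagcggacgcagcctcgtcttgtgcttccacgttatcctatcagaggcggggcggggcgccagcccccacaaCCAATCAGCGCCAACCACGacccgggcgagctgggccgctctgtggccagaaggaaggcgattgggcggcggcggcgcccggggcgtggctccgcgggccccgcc

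The heat shock element was searched as GAANNTTC or TTCNNGAA, N being any base. It was present in 12.8% of all mouse promoters and in 15 of the 76 promoters of members (19.7%). These belong to 13 of the 59 members that had a promoter, some of which had several. An extended element with 1 more repeat of the unit, which always contains the shorter one, was present in 0.466% of all promoters. It was present in 4 of the 76 promoters of members (5.26%), those of *Dnajb6*, *Hspd1* and *Hspe1*. *Hspd1* and *Hspe1* are transcribed away from each other from overlapping windows and share that element. The *Dnajb6* promoters with the extended element also overlap and hold the same one, so the 4 promoters are not 4 separate sites. The *Hspe1* promoter is shown for the extended element and that of *Hspa1a*, the classical heat-inducible Hsp70, for the shorter one, in capitals. A match of letters is a description of the sequence and does not show binding.
Hspe1 (chr1:55087898-55088147, plus strand): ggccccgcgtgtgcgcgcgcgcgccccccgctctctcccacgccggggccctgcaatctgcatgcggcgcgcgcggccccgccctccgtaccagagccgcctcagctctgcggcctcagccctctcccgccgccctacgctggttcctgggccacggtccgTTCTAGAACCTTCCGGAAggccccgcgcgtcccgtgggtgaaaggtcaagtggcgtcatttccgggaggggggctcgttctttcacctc
Hspa1a (chr17:34972157-34972406, minus strand): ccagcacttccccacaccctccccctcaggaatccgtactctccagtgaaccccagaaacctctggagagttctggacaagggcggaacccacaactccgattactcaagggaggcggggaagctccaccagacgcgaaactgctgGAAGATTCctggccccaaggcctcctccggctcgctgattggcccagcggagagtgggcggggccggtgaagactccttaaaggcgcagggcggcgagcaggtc

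Values are log2 array intensities. A gene was represented by its brightest probe set, levels were compared only within a probe set, and a difference was called where the adjusted p of the limma fit was under 0.05. The typical spread between mice of a group was small, with a median SD over the tested members of 0.17 and a range from 0.03 to 0.46, the highest being that of *Dnajb9*. Median intensity differed little among the 11 arrays, from 27.47 to 28.64 on the linear scale. It was nonetheless lower in every C57 array (27.47 to 27.67) than in every *mdx* or treated array (27.86 to 28.64). One treated mouse, Pip6e-PMO 2, stood apart. Its members deviated from the mean of the other treated mice by a median of 0.26, against 0.12 to 0.15 for each of the others. *Dmd* itself was 5.87, 5.83 and 5.77 in the C57 mice, 5.82, 5.36, 5.33 and 4.6 in the *mdx* mice and 6.34, 5.51, 5.68 and 5.68 in the treated mice, and no comparison of these overlapping groups was called (adjusted p = 0.198, 0.142 and 0.961 for *mdx* against C57, treated against *mdx* and treated against C57). Its probe set covers the whole transcript and does not measure the skipped exon. Here and below, values are listed in the order of the mouse numbers.

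Markers of the other cell types of muscle differed between the groups. The counts below stand beside the shares of all genes tested that limma called. For *mdx* against C57 these were 7.84% higher and 4.97% lower. For treated against *mdx* they were 7.64% and 3.34%, and for treated against C57 they were 17% and 8.47%. Muscle fibre markers, which define the tissue, were high in all mice, with a mean log2 level over the list of 12.71 to 12.85, and limma called none of 9 in any comparison (0, 0 and 1 at an unadjusted p under 0.05 for *mdx* against C57, treated against *mdx* and treated against C57). Of 9 macrophage markers tested, 8 were higher in *mdx* muscle than in C57, and the list's mean level per mouse ran from 6.25 to 6.62 in the C57 group, from 7.34 to 8.01 in the *mdx* group and from 7.01 to 7.54 in the treated group. Regenerating fibre markers were higher in *mdx* muscle for 7 of 8 and lower in treated than *mdx* muscle for 2 of 8, with mean levels of 6.55 to 6.62, 7.83 to 8.56 and 6.94 to 8.03. Fibroblast markers were higher in *mdx* muscle for 4 of 9, slow fibre markers for 3 of 8 with 1 lower, and endothelial markers for 1 of 6. Against *mdx*, treated muscle had 1 macrophage marker higher and 3 lower, 2 slow fibre markers each way, 2 endothelial markers higher and no fibroblast marker called by limma (3 of 9 at an unadjusted p under 0.05). The fixed lists held no marker at 0, since array intensities have no true zero. Clock genes also differed, with 2 higher and 7 lower of 15 in *mdx* against C57 muscle, and 3 higher in treated against *mdx* muscle. Immediate early genes were higher for 4 and lower for 1 of 16 in *mdx* muscle and lower for 1 in treated against *mdx* muscle. Against C57, treated muscle had 6 of 9 macrophage, 6 of 9 fibroblast, 4 of 6 endothelial and 4 of 8 regenerating fibre markers higher. Of 8 slow fibre markers, 1 was higher (12.5%) and 2 were lower (25%). In the same comparison 3 clock genes were higher and 8 lower of 15. Of 16 immediate early genes, 1 was higher (6.25%) and 3 were lower (18.8%). The shares higher of the slow fibre markers and immediate early genes were thus below that of all genes, and their shares lower were above it. The part of these differences in the results below was not tested.

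The first comparison asked how the chaperones differed between dystrophic and wildtype muscle. Only 2 of the 61 tested members were called. *Hspa2*, an Hsp70 best known from the testis, was higher in *mdx* muscle, and *Dnajc27*, which encodes a small GTPase with a J domain, was lower. *Hspa2* read 6.13, 6.0 and 5.64 in the C57 mice and 6.40, 6.61, 6.56 and 6.76 in the *mdx* mice, so that every *mdx* mouse was above every C57 mouse. The difference was 0.66 ± 0.12 (SE), or 1.58-fold (adjusted p = 0.00498), a call lost by the methods' t-test, the plain test that the study's methods name, after adjustment (adjusted p = 0.0765). *Dnajc27* read 8.65, 8.90 and 8.90 in the C57 mice and 8.19, 8.33, 8.48 and 8.42 in the *mdx* mice, again without overlap. The difference was -0.46 ± 0.12, or 1.38-fold lower (adjusted p = 0.0232), and the call was lost without any one of C57 2, C57 3, *mdx* 1 or *mdx* 2 (adjusted p up to 0.102) and by the adjusted t-test (adjusted p = 0.0726). The 1 member higher and the 1 member lower were each 1.64% of those tested, where 7.84% of all genes tested were called higher and 4.97% lower. The median difference over all 73 members was -0.01, the same to 2 decimals as over all genes of the table.

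Neither of these genes was called between treated and *mdx* muscle. *Hspa2* read 6.44, 6.59, 6.56 and 6.52 in the treated mice, inside the range of the *mdx* mice, and was above C57 by 0.60 ± 0.12 (adjusted p = 0.00576). *Dnajc27* read 8.46, 8.11, 8.44 and 8.41 and was below C57 by the same amount as in *mdx* muscle (-0.46, adjusted p = 0.0155). The intervals of the difference between treated and *mdx* muscle ran from -0.31 to 0.20 for *Hspa2* and from -0.24 to 0.24 for *Dnajc27*. Leaving out any 1 mouse kept both calls for *Hspa2*, whereas the second call for *Dnajc27* was lost without C57 2 or C57 3. The adjusted t-test lost the second call of both genes (adjusted p = 0.0535 for *Hspa2* and 0.0778 for *Dnajc27*).

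**Figure D1:**
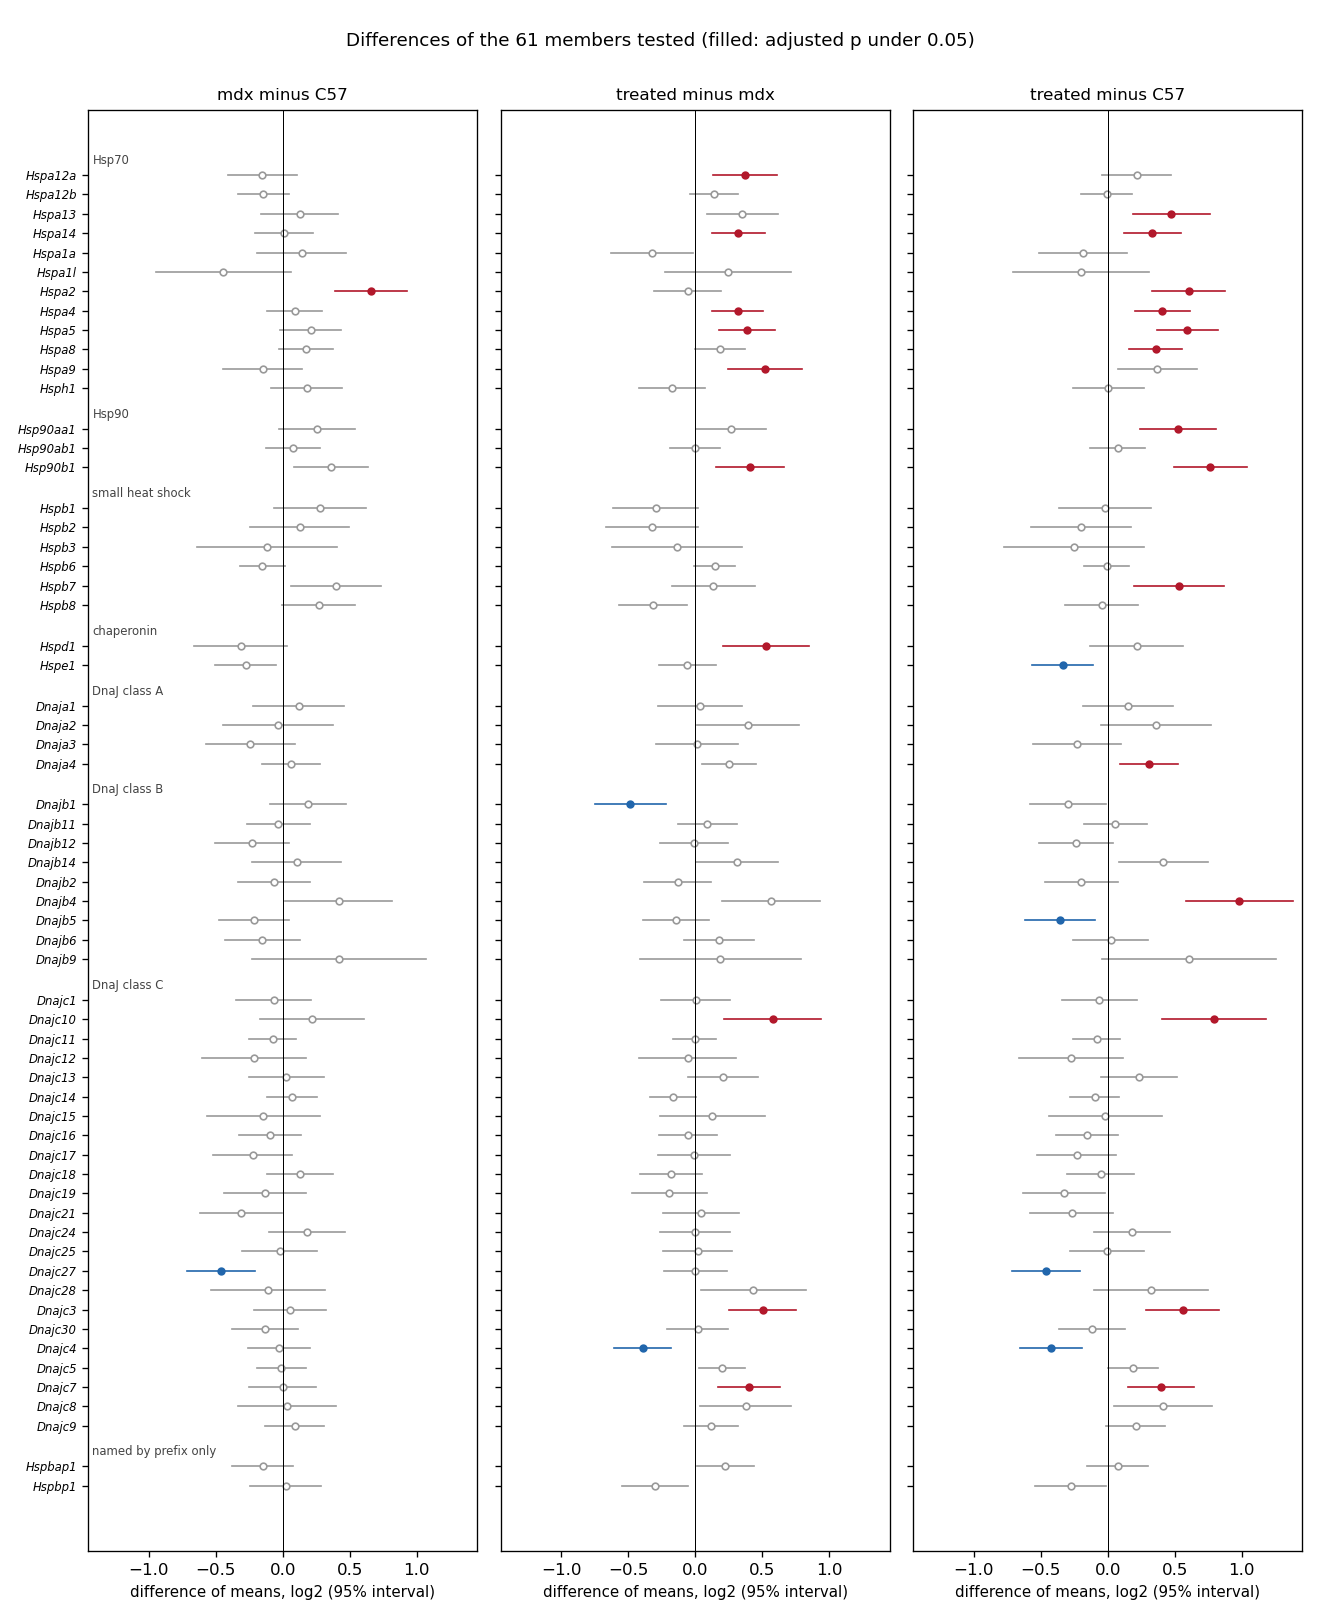
Difference of group means on the log2 scale, with its 95% interval, for each of the 61 tested members in the 3 comparisons, grouped by family. Filled red and blue points are called higher and lower at an adjusted p under 0.05: 1 and 1 for *mdx* minus C57, 10 and 2 for treated minus *mdx*, and 14 and 4 for treated minus C57.

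The second comparison asked how the chaperones responded to Pip6e-PMO. Against untreated *mdx* muscle, 10 members were higher and 2 were lower. These were 16.4% and 3.28% of the 61 tested members, where 7.64% of all genes tested were called higher and 3.34% lower. Among the genes that were higher, 4 encode proteins of the ER, 2 encode proteins of the mitochondrial matrix and 4 encode Hsp70 relatives or co-chaperones of the cytosol. The differences were modest, from 1.25-fold to 1.49-fold. The median difference over all 73 members was 0.02, against -0.04 over all genes of the table.

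Of the 9 members listed here as ER-resident, 4 were higher and none was lower. The list was chosen and leaves out other J proteins of the ER membrane. Of these, *Dnajb12*, *Dnajb14*, *Dnajc14*, *Dnajc16* and *Dnajc18* differed by -0.01, 0.31, -0.165, -0.055 and -0.18, and limma called none of them. *Hspa5* encodes BiP, the Hsp70 of the ER lumen and its master chaperone. It read 8.38, 8.24 and 8.28 in the C57 mice, 8.60, 8.52, 8.44 and 8.47 in the *mdx* mice and 8.65, 8.91, 9.0 and 9.02 in the treated mice. The 3 groups were in that order without overlap, and the step from *mdx* to treated muscle was 0.39 ± 0.10 (1.31-fold, adjusted p = 0.0296). *Hsp90b1* encodes GRP94, the Hsp90 of the ER. It read 6.62, 6.91 and 6.74 in C57, 7.27, 7.20, 7.20 and 6.79 in *mdx* and 7.39, 7.61, 7.51 and 7.58 in treated muscle. All treated mice were above all others, by 0.41 ± 0.12 over *mdx* (1.33-fold, adjusted p = 0.0444).

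*Dnajc3* encodes P58IPK, an ER co-chaperone of BiP that also restrains the kinase PERK. It read 5.94, 6.09 and 6.13 in C57, 6.23, 6.25, 6.13 and 5.82 in *mdx* and 6.47, 6.54, 6.62 and 6.82 in treated muscle. C57 and *mdx* mice overlapped and the treated mice were above both, by 0.505 ± 0.12 over *mdx* (1.42-fold, adjusted p = 0.0236). The probe set of *Dnajc3* matches several transcripts, and the only other probe set of the gene held identical values. *Dnajc10* encodes ERdj5, a reductase that cuts disulfides of proteins bound for degradation. It read 5.12, 5.22 and 5.15 in C57, 5.72, 5.49, 5.30 and 5.01 in *mdx* and 5.97, 5.53, 6.13 and 6.20 in treated muscle. Only the value of Pip6e-PMO 2 lay within the *mdx* range, and the difference was 0.58 ± 0.17 (1.49-fold, adjusted p = 0.0445). The promoters of *Hspa5*, *Hsp90b1* and *Dnajc3* are the ones printed above with the ER stress element, whereas that of *Dnajc10* held a heat shock element and not the ER stress element.

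The other 5 members of the ER-resident list were not called in this comparison. *Hspa13* (STCH), an Hsp70-like protein of the microsomes, had every treated mouse (5.39, 5.33, 5.77 and 5.68) above every *mdx* mouse (5.29, 5.29, 5.08 and 5.11), with a difference of 0.35 ± 0.12 (adjusted p = 0.0781). *Dnajb9* (ERdj4), a strongly inducible target of the unfolded protein response, varied most between mice of a group. It was 7.86 to 7.92 in the C57 mice but 8.67, 8.80, 8.04 and 7.73 in the *mdx* mice and 8.61, 7.68, 8.91 and 8.79 in the treated mice, and the difference between the last 2 groups was 0.19 ± 0.28 (adjusted p = 0.678). *Dnajb11* (ERdj3), *Dnajc1* and *Dnajc25* differed by 0.09, 0.00 and 0.02, with overlapping groups.

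**Figure D2:**
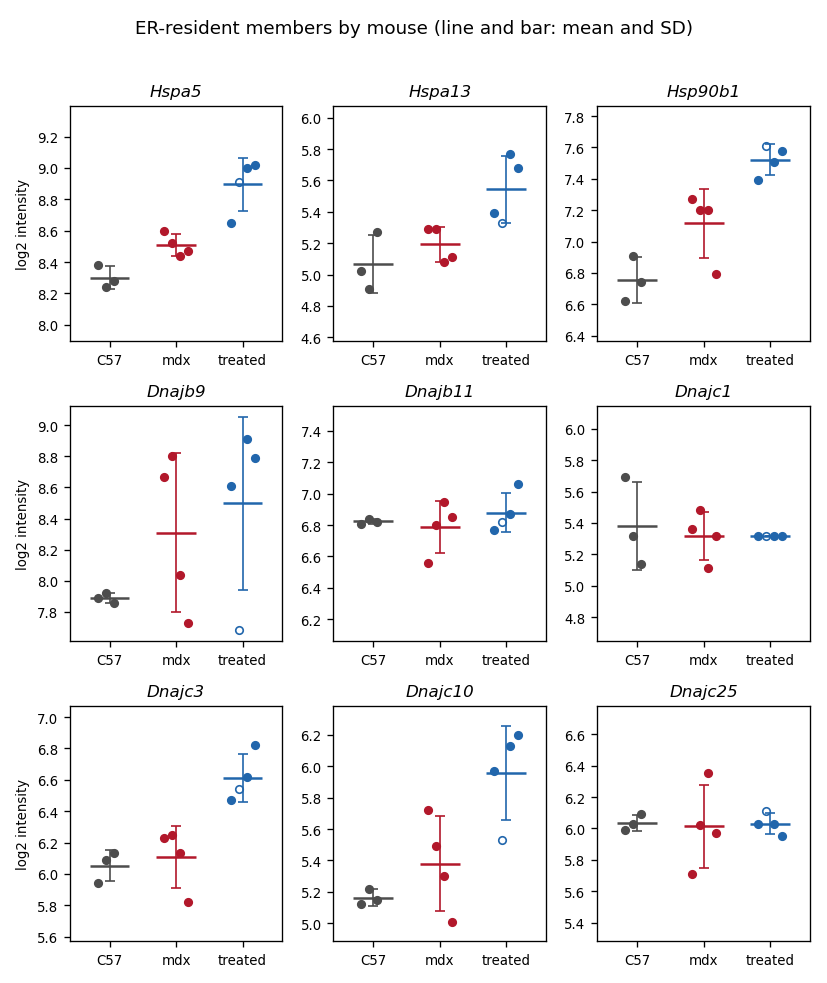
Log2 intensity of the 9 members listed as ER-resident, 1 panel per gene with its own vertical range, in 3 C57, 4 *mdx* and 4 treated mice. Points are mice, the open circle is Pip6e-PMO 2, and lines with bars are the mean and SD of a group. All treated mice lie above all *mdx* mice for *Hspa5*, *Hsp90b1*, *Dnajc3* and *Hspa13*, whereas *Dnajb9* spreads from 7.68 to 8.91 among the treated mice.

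Mitochondrial members were called in both directions. *Hspa9* encodes mortalin, the Hsp70 that pulls proteins into the matrix. It read 9.64, 9.63 and 9.57 in C57, 9.52, 9.57, 9.53 and 9.23 in *mdx* and 10.12, 9.63, 9.98 and 10.21 in treated muscle. All treated mice were above all *mdx* mice, with a difference of 0.52 ± 0.13 (1.44-fold, adjusted p = 0.0272). *Hspd1* (HSP60), the chaperonin, read 7.69, 7.59, 7.35 and 7.02 in *mdx* and 8.18, 7.68, 7.89 and 8.02 in treated muscle, where Pip6e-PMO 2 fell within the *mdx* range, and differed by 0.53 ± 0.15 (adjusted p = 0.0401). Its brightest probe set lies at a locus on another chromosome than the gene and matches several transcripts. The dimmer probe set at the gene itself gave 0.31 (adjusted p = 0.34). *Hspe1* (HSP10), the partner that shares the promoter region printed above, read 9.66, 9.61, 9.60 and 9.49 in *mdx* and 9.42, 9.43, 9.63 and 9.64 in treated muscle, with overlap (difference -0.06, adjusted p = 0.712).

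*Dnajc4*, a little-studied J protein counted here with the mitochondrial members, was lower. It read 9.04, 9.09 and 9.35 in C57, 9.21, 9.23, 9.08 and 9.01 in *mdx* and 8.64, 8.85, 8.81 and 8.66 in treated muscle, so that the treated mice were below all others, by 1.31-fold against *mdx* (-0.39 ± 0.10, adjusted p = 0.0304). In all, 2 of the 10 mitochondrial members were higher and 1 was lower. The other 7, which include the import motor subunits *Dnajc15* and *Dnajc19* and the Hsp70 partner *Dnaja3*, differed by -0.19 to 0.43 and were not called. The lowest of these values is that of *Dnajc19*, whose brightest probe set lies on another chromosome than the gene, and the probe set at the gene gave 0.07. Limma called none of the 10 mitochondrial members between *mdx* and C57 muscle (1 at an unadjusted p under 0.05), where their differences ran from -0.31 to -0.03.

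Of the cytosolic members, *Hspa4* (Apg-2), a nucleotide exchange factor of Hsp70, read 7.69, 7.62, 7.66 and 7.56 in *mdx* and 7.94, 8.05, 7.76 and 8.05 in treated muscle without overlap (0.32 ± 0.09, 1.25-fold, adjusted p = 0.0388). *Dnajc7* (TPR2), a co-chaperone that binds both Hsp70 and Hsp90, read 6.78, 6.58, 6.64 and 6.57 in *mdx* and 7.31, 6.95, 6.94 and 6.97 in treated muscle without overlap (0.40 ± 0.11, adjusted p = 0.0355). *Hspa14*, a subunit of the ribosome-associated complex that meets nascent chains, read 5.64, 5.95, 5.90 and 5.83 in *mdx* and 6.13, 6.08, 6.27 and 6.13 in treated muscle (0.32 ± 0.09, adjusted p = 0.0425). These 3 genes were alike in that C57 and *mdx* mice overlapped and all treated mice were higher. *Hspa12a*, a distant relative of Hsp70, read 5.62, 5.77, 5.96 and 5.77 in *mdx* and 6.32, 6.10, 6.27 and 5.91 in treated muscle, with overlap (0.37 ± 0.11, adjusted p = 0.0494).

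Of the 11 heat-inducible members tested, 1 was higher and 1 lower in treated than *mdx* muscle. Each was 9.09% of those tested, beside 7.64% and 3.34% of all genes tested. *Dnajb1*, the Hsp40 that is among the classical targets of heat shock factor 1, was lower in treated muscle. It read 6.27, 6.47 and 6.35 in C57, 6.43, 6.35, 6.77 and 6.65 in *mdx* and 6.07, 6.33, 5.94 and 5.92 in treated muscle. All treated mice were below all *mdx* mice, by 1.40-fold (-0.485 ± 0.12, adjusted p = 0.0297), with Pip6e-PMO 2 nearest to them. *Dnajb4*, a close relative of *Dnajb1* that is abundant in striated muscle, stood on the other side. It read 7.02, 7.16 and 6.74 in C57, 7.66, 7.51, 7.20 and 7.19 in *mdx* and 7.89, 7.52, 8.15 and 8.26 in treated muscle, and 3 of 4 treated mice exceeded every *mdx* mouse. Its difference of 0.565 ± 0.17 just missed the threshold (adjusted p = 0.0513). The heat-inducible member that was higher than in *mdx* muscle was *Hspd1*, described above. Against C57, 3 of the 11 were higher and 1 was lower in treated muscle. These were 27.3% and 9.09%, beside 17% and 8.47% of all genes tested.

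The inducible Hsp70 itself, *Hspa1a*, read 7.94, 7.75 and 7.70 in C57, 7.59, 7.91, 8.21 and 8.04 in *mdx* and 7.59, 7.41, 7.55 and 7.90 in treated muscle. The groups overlapped, and the difference between treated and *mdx* muscle was -0.33 ± 0.14 (adjusted p = 0.138). Its brightest probe set matches several transcripts, and its near-identical neighbour *Hspa1b* has no symbol in the table, so that the value may hold both. *Hsph1* (HSP105), an exchange factor induced together with Hsp70, differed by -0.175 ± 0.11 (adjusted p = 0.31). The constitutive cytosolic chaperones are abundant without stress. *Hspa8* (HSC70) was 11.48 to 11.75 in *mdx* and 11.73 to 11.89 in treated muscle, a difference of 0.19 (adjusted p = 0.159), and *Hsp90ab1* was 11.20 to 11.37 and 11.15 to 11.33, a difference whose interval ran from -0.19 to 0.19.

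None of the 6 small heat shock members measured in muscle was called by limma between treated and *mdx* muscle, 1 of them having an unadjusted p under 0.05, with *Hspb9*, mainly a testis gene, below the signal limit. *Hspb8*, the partner of *Bag3* in the clearance of damaged Z-disc proteins, read 11.20, 11.17 and 11.41 in C57, 11.54, 11.53, 11.45 and 11.59 in *mdx* and 11.07, 11.57, 11.10 and 11.12 in treated muscle. All *mdx* mice were above all C57 mice, and 3 of 4 treated mice were below all of both, whereas Pip6e-PMO 2 lay within the *mdx* range (-0.31 ± 0.12, adjusted p = 0.0939). *Hspb2*, a muscle protein that binds the myotonic dystrophy kinase, also had Pip6e-PMO 2 apart, at 10.09, 10.03, 10.19 and 10.19 in *mdx* and 9.53, 10.33, 9.75 and 9.59 in treated muscle (-0.325 ± 0.16, adjusted p = 0.18). *Hspb1* (HSP25) was 11.02 to 11.60 and 10.77 to 11.17 (-0.295 ± 0.15, adjusted p = 0.188).

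*Hspb6* (HSP20), which is phosphorylated in working muscle, had tight groups. It read 13.02, 12.99 and 13.06 in C57, 12.83, 12.89, 12.91 and 12.85 in *mdx* and 13.01, 12.99, 13.01 and 13.05 in treated muscle. The *mdx* mice were below all others, but by 0.15 only, and neither step was called (adjusted p = 0.242 and 0.183). *Hspb7*, a heart and muscle protein that binds filamin, was 11.21 to 11.65 in *mdx* and 11.39 to 11.70 in treated muscle (0.135, adjusted p = 0.548), and *Hspb3* differed by -0.14 (adjusted p = 0.71).

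**Figure D3:**
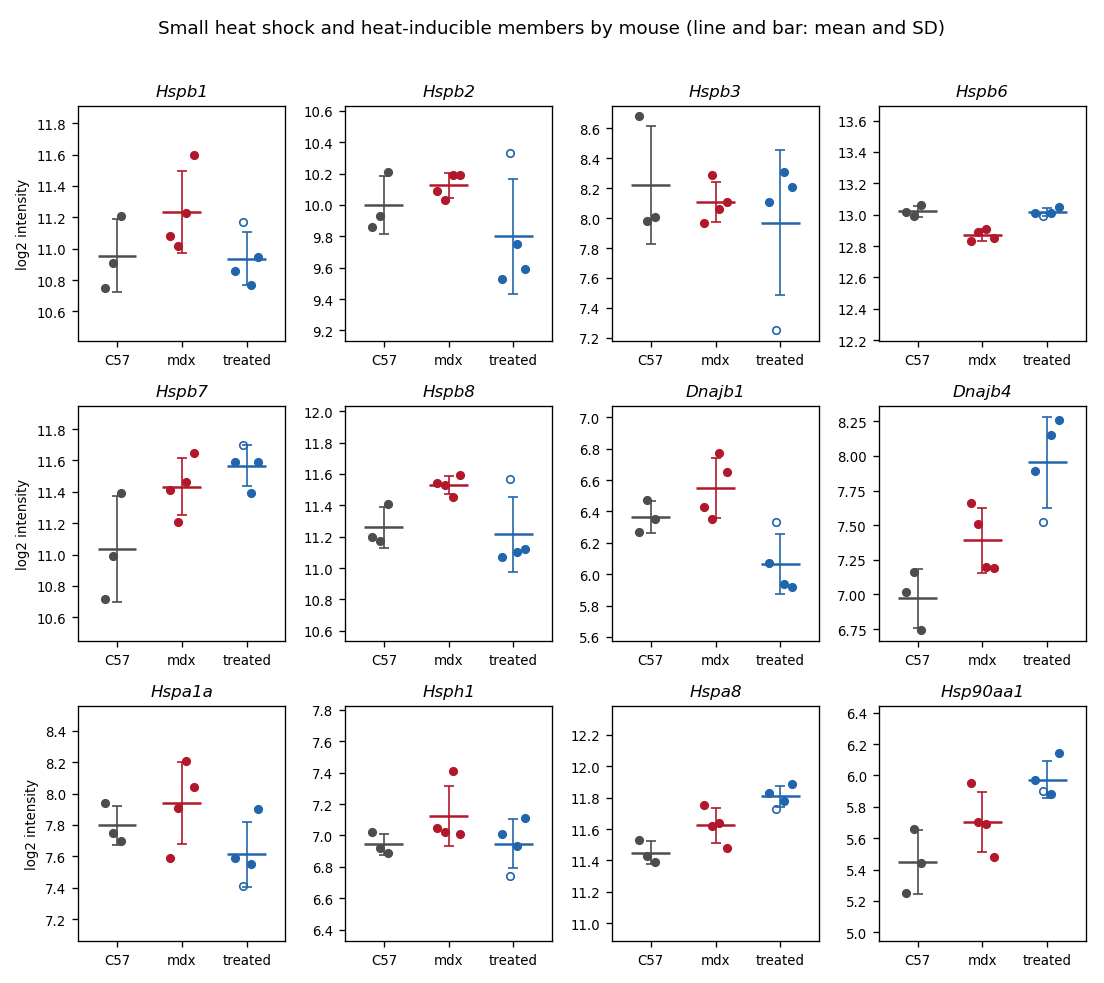
Log2 intensity of the 6 small heat shock members and of 6 heat-inducible members in 3 C57, 4 *mdx* and 4 treated mice, 1 panel per gene with its own vertical range. Points are mice, the open circle is Pip6e-PMO 2, and lines with bars are the mean and SD of a group. Pip6e-PMO 2 is at 11.57 for *Hspb8* and 10.33 for *Hspb2*, apart from the other treated mice, and all treated mice lie below the *mdx* mice for *Dnajb1*, whereas 3 of 4 lie above them for *Dnajb4*.

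All 12 calls between treated and *mdx* muscle depended on which mice were in the fit. Without *mdx* 3, *mdx* 4 or Pip6e-PMO 4, limma called none of the 61 members, while 19, 17 and 19 had an unadjusted p under 0.05. Of all genes tested, 2.45%, 1.6% and 1.39% were then called higher. With all mice in the limma fit, 26 of the 61 members and 3680 of the 11842 genes tested had an unadjusted p under 0.05. The share of all genes at that threshold was not counted for the fits without a mouse or for the t-test below. *mdx* 4 had the lowest value of its group for 7 of the 10 members that were higher, *Hspa5*, *Hspa12a* and *Hspa14* being the others. Without Pip6e-PMO 2, by contrast, 20 members were called, all 12 among them, at 15 higher and 5 lower, where 17.3% of all genes tested were higher and 11.5% lower. The added calls were *Dnaja2*, *Dnajb4*, *Dnajb14*, *Dnajc5* and *Hspa13*, which were higher, and *Hspb2*, *Hspb8* and *Hspbp1*, which were lower. Without that mouse *Hspb8* differed by -0.43 (adjusted p = 0.00627), *Hspb2* by -0.50 (adjusted p = 0.00745) and *Hspa9* by 0.64 (adjusted p = 0.00317). The methods' t-test called 23 members at an unadjusted p under 0.05 and none after Benjamini-Hochberg adjustment.

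The third comparison set treated muscle against C57. It shares its groups with the other comparisons and is no independent check of them. Here 14 members were higher and 4 were lower. These were 23% and 6.56% of the tested members, where 17% of all genes tested were called higher and 8.47% lower. The median difference over all 73 members was -0.01, against -0.05 over all genes. None of the J proteins named above as left out of the ER-resident list was called. Of the 9 members on that list, 5 were higher. These were *Hsp90b1* (0.77 ± 0.13, 1.70-fold, adjusted p = 0.00184), *Hspa5* (0.595 ± 0.10, 1.51-fold, adjusted p = 0.00258), *Dnajc3* (0.56 ± 0.12, 1.47-fold, adjusted p = 0.00839), *Dnajc10* (0.79 ± 0.18, 1.73-fold, adjusted p = 0.00889) and *Hspa13* (0.48 ± 0.13, 1.39-fold, adjusted p = 0.0226). The first 4 calls held when any 1 mouse was left out (adjusted p up to 0.0348). By the methods' t-test after adjustment, that of *Dnajc10* was lost (adjusted p = 0.0605) and those of *Hsp90b1*, *Hspa5* and *Dnajc3* were kept. The call for *Hspa13* was lost in 4 such fits, without C57 1, C57 2, Pip6e-PMO 3 or Pip6e-PMO 4.

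*Dnajb4* had the widest gap to C57 of the called members, at 1.97-fold (0.98 ± 0.18, adjusted p = 0.00344), and kept its call without any 1 mouse, as did *Hspa4* (1.33-fold, adjusted p = 0.00999). Both calls were lost by the methods' t-test after adjustment (adjusted p = 0.0594 and 0.0504). Values for *mdx* muscle lay between those of C57 and treated muscle for *Dnajb4*, whose *mdx* mice were 0.42 above C57 (adjusted p = 0.179). *Hsp90aa1*, the inducible cytosolic Hsp90, read 5.25, 5.66 and 5.44 in C57, 5.95, 5.70, 5.69 and 5.48 in *mdx* and 5.97, 5.90, 5.88 and 6.14 in treated muscle. It was 1.44-fold higher in treated than C57 muscle (adjusted p = 0.0142), a call lost without C57 1. Its other probe sets lie on other chromosomes than the gene, and every probe set of the gene, the brightest included, matches several transcripts. Of the others, 1 was also called (0.49, adjusted p = 0.0373) and 1 was not (0.23, adjusted p = 0.115). *Hspa8* read 11.53, 11.43 and 11.39 in C57, below all treated mice, and differed by 0.36 ± 0.09 (adjusted p = 0.0164), a call lost without C57 2 or C57 3. Its other probe sets lie on other chromosomes than the gene, match several transcripts and were not called (0.31, adjusted p = 0.0761, and 0.28, adjusted p = 0.185). The call was also lost with the mean of its probe sets (adjusted p = 0.062). *Hspb7* read 10.72, 10.99 and 11.39 in C57, where the highest mouse equalled the lowest treated mouse, and differed by 0.53 ± 0.15 (adjusted p = 0.0266). This call was lost without any one of C57 1, C57 2, Pip6e-PMO 1 or Pip6e-PMO 4, and the difference ran from 0.38 to 0.71 when 1 mouse was left out. The remaining members that were higher were *Hspa2* above, *Dnajc7* (0.40), *Hspa14* (0.33) and *Dnaja4* (0.31, adjusted p = 0.0409), a cytosolic partner of Hsp70. The call was lost in 3 of the fits that left out 1 mouse for *Dnajc7* (C57 1, C57 3 or Pip6e-PMO 1), in 4 for *Hspa14* (C57 2, C57 3, Pip6e-PMO 3 or Pip6e-PMO 4) and in 6 for *Dnaja4* (every C57 mouse, *mdx* 2, Pip6e-PMO 3 or Pip6e-PMO 4). The calls for *Hspa14* and *Dnaja4* were also lost with the arrays centred on their median.

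The 4 members that were lower than in C57 muscle were *Dnajc27*, *Dnajc4*, *Hspe1* and *Dnajb5*. *Dnajc4* was 1.34-fold lower (adjusted p = 0.0155), a call lost without C57 3. *Hspe1* read 9.79, 9.75 and 10.06 in C57, above all treated mice, and was lower by 1.26-fold (-0.34 ± 0.11, adjusted p = 0.0367). *Dnajb5*, a DnaJ protein that binds class II histone deacetylases in heart muscle, read 9.45, 9.57 and 9.72 in C57 and 9.15, 9.46, 9.16 and 9.12 in treated muscle (-0.36 ± 0.12, adjusted p = 0.0489), with Pip6e-PMO 2 inside the C57 range. The calls for *Hspe1* and *Dnajb5* were lost in 6 and 9 of the fits that left out 1 mouse.

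**Figure D4:**
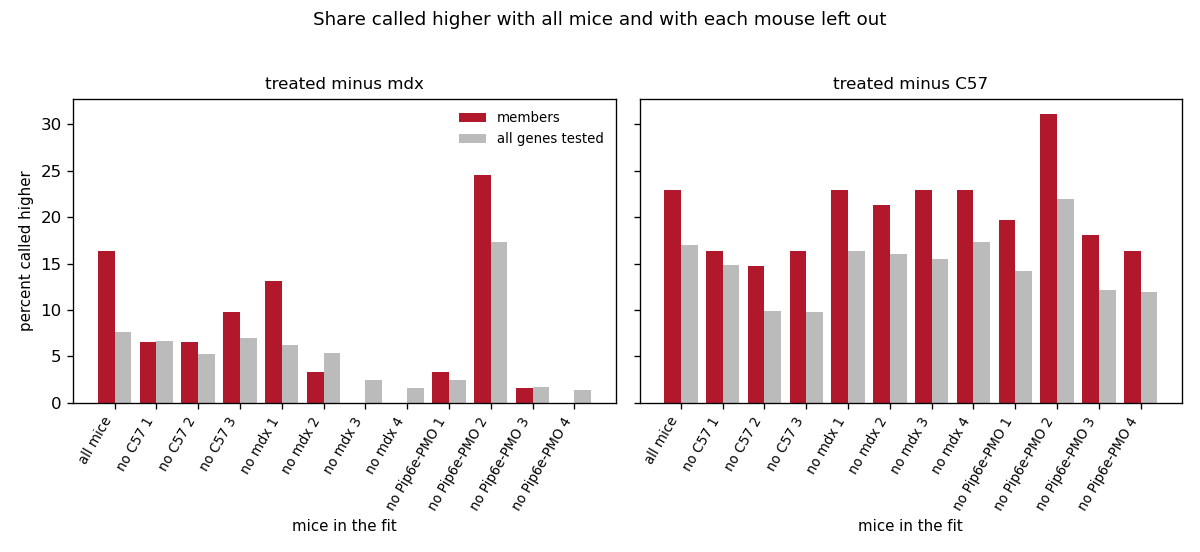
Percentage of the 61 tested members (red) and of all genes tested (grey) called higher, in fits with all mice and in fits without 1 of them, for treated minus *mdx* (left) and treated minus C57 (right). Against *mdx* the members go from 0 called without *mdx* 3, *mdx* 4 or Pip6e-PMO 4 to 15 without Pip6e-PMO 2, whereas against C57 they go from 9 to 19.

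Chaperones and partners under other names were counted in the same way. The TRiC chaperonin, which folds actin and tubulin in the cytosol, had 3 of 8 subunits higher in treated than *mdx* muscle and 4 of 8 higher than in C57, with none called by limma between *mdx* and C57 (0 at an unadjusted p under 0.05). The shares higher were 37.5% and 50% of the subunits, beside 7.64% and 17% of all genes tested. Against C57, *Cct3* (0.80, adjusted p = 0.0046) and *Cct8* (0.59, adjusted p = 0.00547) kept their calls without any 1 mouse. The calls for *Cct4* (0.54, adjusted p = 0.0231) and *Cct6a* (0.61, adjusted p = 0.0366) were lost in 5 and 6 such fits. After adjustment, the methods' t-test kept only the call for *Cct8* against C57. *Cct8* read 7.08, 7.20 and 7.31 in C57, 7.33, 7.31, 7.13 and 6.93 in *mdx* and 7.65, 7.69, 7.89 and 7.91 in treated muscle. It was 0.61 above *mdx* (adjusted p = 0.0117), and this call held without any 1 mouse. The methods' t-test after adjustment lost it (adjusted p = 0.0813), as it did the calls against *mdx* for *Cct3*, *Cct6a* and *Sugt1* given next. *Cct3* and *Cct6a* were 0.55 and 0.66 above *mdx* (adjusted p = 0.036 and 0.0367), calls lost without any one of *mdx* 3, *mdx* 4, Pip6e-PMO 1, Pip6e-PMO 3 or Pip6e-PMO 4 and, for *Cct6a*, also without C57 2 (adjusted p up to 0.1 and 0.106). Of 32 heat shock factors and co-chaperones, the only call against *mdx* was *Sugt1*, a scaffold of Hsp90 and of the kinetochore, which was 0.60 higher (adjusted p = 0.0261), a call lost without the same *mdx* or treated mice (adjusted p up to 0.0777). Against C57, 6 were higher and 3 lower in treated muscle, 18.8% and 9.38% of the list beside 17% and 8.47% of all genes tested. The higher ones were *Hsf2* (0.69, adjusted p = 0.0399), *Sugt1* (0.76, adjusted p = 0.0052) and *St13* (0.56, adjusted p = 0.0205). With them were *Tomm70a* (0.59, adjusted p = 0.0152), *Cdc37l1* (0.52, adjusted p = 0.0279) and *Chordc1* (0.56, adjusted p = 0.0284). The lower ones were *Hsf1* itself (-0.28, adjusted p = 0.0385), the Hsp90 immunophilin *Fkbp4* (-0.42, adjusted p = 0.0111) and *Sgta* (-0.25, adjusted p = 0.0432). Of the higher calls, only that for *Sugt1* held without any 1 mouse. Those for *Hsf2* and *Sgta* were lost in 6 and 10 of these fits. The call for *Hsf1* was lost in 6 of the fits that left out 1 mouse, without C57 2, C57 3, *mdx* 2, *mdx* 3, Pip6e-PMO 3 or Pip6e-PMO 4 (adjusted p up to 0.13), and that for *Fkbp4* without C57 2 (adjusted p = 0.0551). Limma called none of the list between *mdx* and C57 (5 at an unadjusted p under 0.05). No member of the list of relatives under other symbols, such as *Cryab* (alpha-B crystallin), *Hyou1* and *Trap1*, was called in any comparison among the 7 tested. At an unadjusted p under 0.05 there were 0, 2 and 1 of them for *mdx* against C57, treated against *mdx* and treated against C57.

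The wider list of ER folding and unfolded protein response genes was called in both directions. Of its 19 tested genes, 2 were higher and 2 lower in dystrophic than in wildtype muscle. These were 10.5% each, beside 7.84% and 4.97% of all genes tested. *Pdia3*, a disulfide isomerase that works with calnexin, was 0.60 higher (adjusted p = 0.0106) and *Sdf2l1*, an ER stress-induced partner of *Dnajb11*, was 0.85 higher (adjusted p = 0.00406). *Ddit3* (CHOP), the stress transcription factor, was 0.605 lower (adjusted p = 0.00859) and *Herpud1*, a component of ER-associated degradation, was 0.39 lower (adjusted p = 0.0138). The methods' t-test after adjustment lost the calls for *Pdia3* (adjusted p = 0.0514), *Sdf2l1* (adjusted p = 0.0659) and *Ddit3* (adjusted p = 0.0678). That for *Herpud1* was lost by limma without C57 1 or C57 3 (adjusted p up to 0.054). *Sdf2l1* read 6.35, 6.43 and 6.67 in C57, 7.05, 7.28, 7.30 and 7.69 in *mdx* and 6.50, 6.95, 6.63 and 6.60 in treated muscle. It was the only gene of the list called against *mdx*, and it was lower (-0.66, adjusted p = 0.0204), while *Hspa5*, *Hsp90b1*, *Dnajc3* and *Dnajc10* were higher in the same mice. The call for *Sdf2l1* against *mdx* was lost without any one of *mdx* 4, Pip6e-PMO 1, Pip6e-PMO 3 or Pip6e-PMO 4 (adjusted p up to 0.0623). It was also lost by the methods' t-test after adjustment (adjusted p = 0.112). Against C57, treated muscle had 4 genes of the list higher (*Pdia3*, *Pdia4*, *Pdia6* and *Canx*) and 1 lower (*Herpud1*). These were 21.1% and 5.26% of the list, beside 17% and 8.47% of all genes tested. The calls for *Pdia4* and *Pdia6* were lost without any one of C57 2, C57 3, Pip6e-PMO 3 or Pip6e-PMO 4 (adjusted p up to 0.118 and 0.1). Both were also lost by the methods' t-test after adjustment.

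For 8 members the brightest probe set matches several transcripts: *Dnaja1*, *Dnajb6*, *Dnajc3*, *Hsp90aa1*, *Hspa1a*, *Hspb1*, *Hspd1* and *Hspe1*. For 5 members, *Dnaja1*, *Dnajb6*, *Dnajc19*, *Hspb1* and *Hspd1*, the brightest probe set lies on another chromosome than the gene. For *Dnajb6*, the Hsp40 whose mutations cause a limb girdle muscular dystrophy, 4 such probe sets read alike and differed by -0.18 to -0.15 between *mdx* and C57 muscle, without a call. The fifth and dimmest, which lies at the gene, read 4.78, 5.01 and 5.12 in C57, 4.26, 3.71, 4.07 and 4.10 in *mdx* and 4.94, 4.42, 4.59 and 4.46 in treated muscle. It passed the limit for testing, a mean intensity of 30 in at least 1 group, through the C57 group alone, with mean intensities of 31.5 in C57, 16.5 in *mdx* and 24.5 in treated muscle, so that its values are given with no test. For *Dnaja1*, the probe set at the gene was 0.54 higher in *mdx* than C57 muscle (adjusted p = 0.0486), whereas the brightest one was 0.12 higher (adjusted p = 0.714). The 2 readings of these genes cannot be brought together here, and their calls are not counted above.

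The 12 members below the signal limit were *Dnajb3*, *Dnajb7*, *Dnajb8*, *Dnajb13*, *Dnajc2*, *Dnajc5b*, *Dnajc5g*, *Dnajc6*, *Dnajc22*, *Hspa4l*, *Hspb9* and *Hspb11*. *Hspb11*, *Hspbp1* and *Hspbap1* belong by the start of their symbols and are not themselves heat shock chaperones: the first is a subunit of intraflagellar transport, the second an exchange factor that binds Hsp70, and the third a binding partner of a small heat shock protein.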

How the data were processed

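The authors hybridised column-purified total RNA from TA cryosections to Affymetrix Mouse Gene ST 1.1 arrays and made the deposited intensities with Affymetrix Expression Console (RMA background correction, sketch-quantile normalization, median polish), linear signal for 28350 probe sets. The genome build is not given in the sources used here. Depth does not apply to arrays, and the 11 mice limit the precision. Intensities were turned to log2. A limma 3.58.1 model in R 4.3.3 was fitted over all 3 groups to the 14494 probe sets with a mean intensity of at least 30 in 1 group or more, with Benjamini-Hochberg adjustment over all of them, 8 residual degrees of freedom and a threshold of 0.05 with no minimum fold. Backgrounds were counted over 11842 gene symbols with 1 probe set each. Named genes were the members called in any comparison, the 10 with the highest signal, the heat-inducible and small heat shock members, and called genes of the 4 lists of chaperones and partners under other symbols. The other listed ER-resident and mitochondrial members, *Dnajb6*, *Cryab*, *Hyou1*, *Trap1* and *Dmd* were named outside that rule after their values were seen. So were *Dnajb12*, *Dnajb14*, *Dnajc14*, *Dnajc16* and *Dnajc18*. All 73 members matched the RefSeq table by Entrez ID. On simulated data for 14494 probe sets, 200 were changed by 1 on the log2 scale in *mdx*. For *mdx* minus C57, 88% of these were recovered, with 11 false calls among the unchanged probe sets. No smaller change was simulated, so the recovery of differences as small as those called between treated and *mdx* muscle is not known. The members and lists were chosen with earlier results of these data known. Mice with the same number in different groups were checked for shared deviations: their correlations ran from -0.297 to 0.153 over 10 pairs, 1 of them above 0.1, so numbers do not pair mice. No pair of arrays held identical values. Alternatives were the methods' t-test, other thresholds, filters, normalizations and probe sets, and leaving out each mouse. Promoters came from RefSeq (GRCm38.p6) for 59 members. Figures were drawn with matplotlib 3.10.9 in Python 3.11.15.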

Additional observations from a re-analysis of the deposited data

Results flagged for a closer look

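Within groups of 4 mice, a single mouse stood far from the other 3 in 10 of 106 groups tested, over 53 named genes. The gap to the nearest other mouse, as a share of the range of the group, was above Dixon's 95% critical value for 4 samples, which chance passes in about 1 in 20 groups. Groups of 3 were not tested.

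In 4 of the 10 cases the mouse was Pip6e-PMO 2. It was highest for *Dnajb5*, at 9.46 where the other treated mice were 9.12 to 9.16, and for *Hspb8*, at 11.57 where they were 11.07 to 11.12. It was lowest for *Dnajc27*, at 8.11 where they were 8.41 to 8.46, and for *Hsf2*, at 6.11 where they were 6.51 to 6.59. Pip6e-PMO 1 was highest for *Dnajc7*, at 7.31 against 6.94 to 6.97.

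Among the *mdx* mice, *mdx* 4 was lowest for *Hsp90b1*, at 6.79 against 7.20 to 7.27, and for *Hspa9*, at 9.23 against 9.52 to 9.57. *mdx* 3 was highest for *Hsph1*, at 7.41 against 7.01 to 7.05, and for *Hsp90ab1*, at 11.37 against 11.20 to 11.22. *mdx* 1 was lowest for *Fkbp4*, at 8.60 against 8.67 to 8.68, a gap below the usual spread between mice.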

How the results depend on the processing

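No called direction reversed in any alternative. Between treated and *mdx* muscle, where 12 members were called, the count was 0 by the methods' t-test after adjustment (23 before it), 0 at the threshold of the study's text (1.5-fold and an unadjusted p under 0.01, where 26 members and 3680 of the 11842 genes tested had an unadjusted p under 0.05), 2 with only those groups in the fit, 22 with array weights, 7 with a minimum signal of 100 and 5 with quantile normalization repeated. It ran from 0 to 20 when 1 mouse was left out (higher 0 to 15, lower 0 to 5), and the median difference from 0.0025 to 0.085. Between *mdx* and C57, where 2 were called, it was 1 by the adjusted t-test (*Hspb6*, neither of the 2) and 9 before adjustment, 1 at the study's threshold, 7 with array weights, 1 with a minimum signal of 100, and 4 with probe sets on the gene's own chromosome or matching 1 transcript, both chosen after seeing the data and both counting *Dnajb6*, bright enough in C57 only. It ran from 1 to 3 when 1 mouse was left out (higher 1 to 2, lower 0 to 1), with medians of -0.0225 to 0.01, and the median was -0.0517 with arrays centred and -0.0407 with quantile normalization repeated. Between treated and C57, where 18 were called, it was 6 by the adjusted t-test, 5 at the study's threshold and 29 with array weights. It ran from 10 to 26 when 1 mouse was left out (higher 9 to 19, lower 0 to 7), with medians of -0.0167 to 0.005, and the median was -0.0558 with arrays centred. With replicate number as a block, a pairing the check did not bear out, the counts were 1 for *mdx* minus C57, 0 for treated minus *mdx* (20 at an unadjusted p under 0.05) and 11 for treated minus C57. The cause of these changes was not tested, beyond fewer mice or probe sets entering some fits. Signal over background limits the 12 untested members.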
